A study of Macaca mulatta with 8 samples.

Results

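Cycling cells are cells that are copying their DNA or dividing, and in the brain after birth they are rare. They were picked out here from single nuclei of male rhesus macaque brain by RNA for 7 proteins of the G2 and M phases: MKI67, TOP2A, CENPF, ASPM, BUB1, NUSAP1 and KIF11. A nucleus counted as cycling if at least 3 of these genes had a UMI (a counted RNA molecule) and the 7 together reached at least 5 UMIs per 10000 UMIs of the nucleus. Of 58220 nuclei with at least 500 UMIs and 300 genes, 184 met the rule, or 0.316% (exact 95% interval 0.272% to 0.365%). The other 58036 nuclei are called other nuclei below.

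The sevoflurane group was a pool of tissue from 1 male macaque, divided into 4 samples. That animal inhaled about 2.5% to 3% of this volatile anaesthetic for 4 h at a time, at around postnatal day 7 and again at times the labels give as 14 and 28 days. The control group was a pool of tissue from 2 male macaques, also divided into 4 samples. Nuclei came from frozen tissue and were profiled with 10x Genomics 3' chemistry v3. The labels call the tissue hippocampus in one field and amygdala in another, and they do not give the age at collection. The deposited matrix holds 8 libraries, told apart by a number from 1 to 8 at the end of each barcode, and these numbers could not be matched to the 8 samples. Sevoflurane and control were therefore not compared, the matrix counts as 1 sample, and no p-value was computed.

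A dividing cell passes through a fixed order of steps. In G1 phase origins of replication are licensed by the MCM helicase, in S phase the DNA is copied, and in G2 and M phases the chromosomes are condensed, attached to the spindle by their kinetochores and pulled apart, after which cytokinesis divides the cytoplasm. Neurons of the mammalian brain do not divide once formed, whereas oligodendrocyte precursors, astrocytes and microglia can divide after birth and make up most of its cycling cells. In the hippocampus, radial glia-like stem cells of the dentate gyrus also divide and give rise to granule neurons. Because all 7 genes of the rule peak late in the cycle, the rule finds few cells in early S phase and does not look for cells in G1.

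The libraries held between 35806547 and 47007082 UMIs. Libraries 1 to 4 had median depths of 3189 to 3426 UMIs per nucleus, and libraries 5 to 8 had 6078 to 6326. Between libraries 429 barcode sequences recurred, and 3 of the 184 cycling nuclei carried such a barcode. Intervals below are exact 95% intervals and cover counting error only, which is not the spread between animals. CPM stands for UMIs per 1000000 UMIs, and each fold is the CPM of cycling nuclei over that of other nuclei unless it is said to be lower.

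The 7 genes of the rule chose the nuclei, so their values are given as a description only. MKI67, the antigen recognised by the Ki-67 antibody, averaged 313 CPM in cycling nuclei and 0.337 CPM in other nuclei. By library its level in cycling nuclei was 271 CPM in library 1, 375 CPM in library 2, 337.5 CPM in library 3 and 332 CPM in library 4. The 4 libraries lay close to each other. TOP2A, the topoisomerase that untangles replicated DNA, averaged 792 CPM in cycling nuclei and 3.67 CPM in other nuclei. ASPM, a spindle pole protein whose loss causes primary microcephaly in humans, averaged 448 CPM in cycling nuclei and 2.41 CPM in other nuclei. A UMI of TOP2A was present in 90.2% of cycling nuclei and one of BUB1, a spindle checkpoint kinase, in 44.6%, with the other 5 genes between. Among other nuclei that carried the markers of mature neurons, which do not divide, the shares with a UMI ran from 0.215% for MKI67 to 4.58% for NUSAP1, at a median of 7849 UMIs against 3352 in cycling nuclei.

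The nuclei differed in how strongly they met the rule. The 7 genes took 28.0 UMIs per 10000 in the median cycling nucleus, with a range of 5.77 to 112. All 7 genes were detected in 19 nuclei, 6 in 37, 5 in 33, 4 in 51 and 3 in 44. The nuclei just inside the threshold had 5.77, 6.89 and 7.02 UMIs per 10000. Those just outside it, with at least 3 of the genes detected, had 4.99, 4.66 and 4.35. In all 28 nuclei with at least 3 of the genes fell short of 5 per 10000, at a median depth of 15947 UMIs. A further 62 nuclei reached 5 per 10000 with 2 of the genes, and their median depth was 2770.5 UMIs.

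Cycling nuclei were found in every library but very unevenly. Libraries 1, 2, 3 and 4 held 35, 23, 53 and 66 of them, and libraries 5, 6, 7 and 8 held 1, 3, 1 and 2. As shares of the nuclei of a library these were 0.435%, 0.280%, 0.548% and 0.688% in libraries 1 to 4, and 0.0172%, 0.0499%, 0.0178% and 0.0382% in libraries 5 to 8. The shallower libraries had the higher shares, and the intervals of libraries 1 to 4 did not reach those of libraries 5 to 8. Depth moved with this difference, so the count was repeated with every nucleus thinned to 2000 UMIs, which left out 11973 shallower nuclei. The shares then became 0.324%, 0.221%, 0.509% and 0.615% in libraries 1 to 4, against 0.0206%, 0.0201%, 0.0212% and 0.0227% in libraries 5 to 8. The interval of library 2 (from 0.121%) then met that of library 8 (up to 0.126%). Over all libraries the thinned share was 0.262%, against 0.365% for the same nuclei unthinned. Cell makeup moved with the difference too: nuclei with the markers of oligodendrocyte precursors were 8.29%, 7.93%, 13.7% and 15.2% of libraries 1 to 4 and 2.80%, 3.19%, 2.86% and 3.54% of libraries 5 to 8. Within these precursors the cycling share was 1.20%, 1.08%, 2.03% and 3.08% in libraries 1 to 4, and 0%, 0.521%, 0.621% and 0.541% in libraries 5 to 8. The latter rested on 0, 1, 1 and 1 cycling precursors, with upper limits of 2.24%, 2.87%, 3.41% and 2.975%. Library by library, only the intervals of libraries 4 and 5 were apart between the 2 sets. Pooled by set, precursor shares were 2.12% (1.70% to 2.61%) in libraries 1 to 4 and 0.428% (0.0883% to 1.25%) in libraries 5 to 8. Those intervals did not meet, but they did at 2000 UMIs, at 1.84% (1.41% to 2.36%) and 0.7005% (0.191% to 1.78%). Nuclei with astrocyte markers had 0.514% (0.344% to 0.737%) and 0.0274% (0.000693% to 0.152%), which were apart. Nuclei with microglia markers had 0.972% (0.624% to 1.44%) and 0.448% (0.0114% to 2.47%), which met. Animal, treatment and library preparation cannot be told apart as sources of this difference, since the libraries carry no group.

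**Figure D1:**
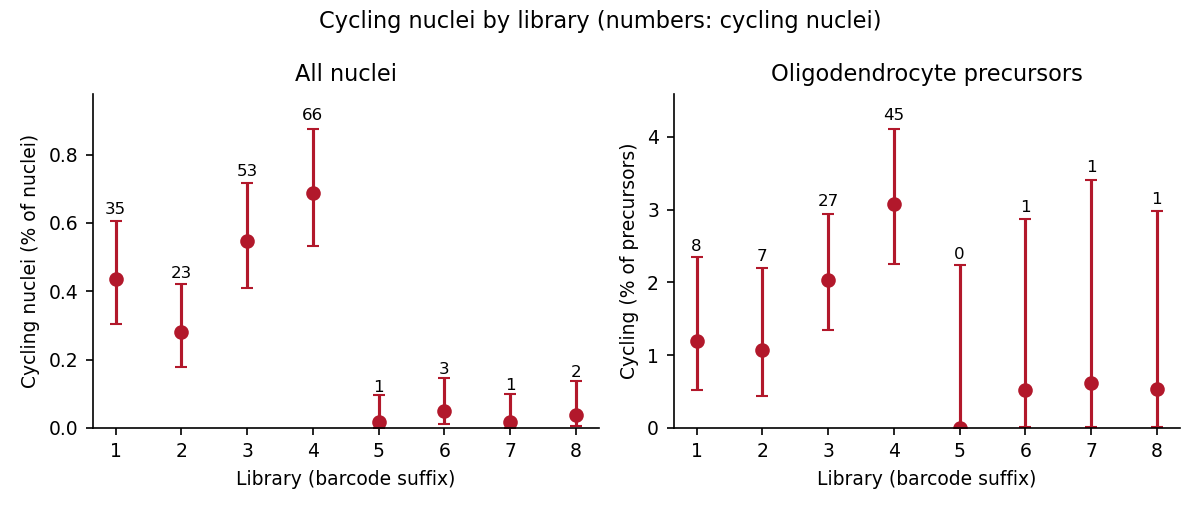
Share of all nuclei (left) and of oligodendrocyte precursor-like nuclei (right) that were cycling in each of the 8 libraries (percent, bars to the exact 95% interval, counting error only), with the number of cycling nuclei above each. Libraries 1 to 4 held 23 to 66 cycling nuclei each, and libraries 5 to 8 held 1 to 3.

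Each nucleus was given the identity of the marker panel with the most genes detected, out of 11 panels, where at least 3 markers were detected and no other panel had as many. The names below are therefore names of marker panels and stand for "like" that cell type. Nearly all placed cycling nuclei were glial. Oligodendrocyte precursor-like nuclei numbered 90 of 184, or 48.9% (41.5% to 56.4%). Astrocyte-like nuclei, a panel that also takes in radial glia, numbered 30 (16.3%, 11.3% to 22.5%), and microglia-like nuclei 25 (13.6%, 8.99% to 19.4%). A panel of mature neuron genes took 11 nuclei, oligodendrocytes 3, endothelial cells 2 and immature granule-lineage neurons 1, and 22 nuclei (11.96%) were not placed. No cycling nucleus carried the inhibitory neuron panel (0 of 459, which allows a share of up to 0.654%), the ependymal panel (0 of 882, up to 0.340%) or the mural and fibroblast panel (0 of 315, up to 0.952%).

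Set against all nuclei of the same identity, oligodendrocyte precursors had the highest cycling share at 1.87% (1.51% to 2.30%) of 4806 nuclei. Microglia-like nuclei followed with 0.928% (0.602% to 1.37%) of 2693, an interval that does not meet that of the precursors. Astrocyte-like nuclei came next with 0.323% (0.218% to 0.460%) of 9301, and the mature neuron panel had 0.0415% of 26514. Among nuclei with at least 2000 UMIs, which leave out 1832 of the 2693 microglia-like nuclei, the order of the first pair turned: microglia-like nuclei had 2.555% (1.61% to 3.84%) of 861 and precursors 2.19% (1.75% to 2.70%) of 3883. With the same nuclei thinned to 2000 UMIs, microglia-like nuclei had 2.09% (1.24% to 3.28%), precursors 1.67% (1.29% to 2.13%), astrocyte-like nuclei 0.338% of 5618 and the mature neuron panel 0.0159% of 25104. Thinned to 1000 UMIs, which keeps 2517 microglia-like nuclei, precursors had 0.653% (0.444% to 0.926%) and microglia-like nuclei 0.596% (0.334% to 0.981%). The order of precursors and microglia-like nuclei was thus not settled, and both stayed above the astrocyte-like and neuronal shares. By library, the precursors among cycling nuclei were 8, 7, 27 and 45 in libraries 1 to 4, the astrocyte-like nuclei 10, 3, 12 and 4, and the microglia-like nuclei 6, 5, 6 and 7. Precursors led in libraries 2 to 4, and astrocyte-like nuclei led in library 1. Without library 4 the precursors were 38.1% of the cycling nuclei.

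**Figure D2:**
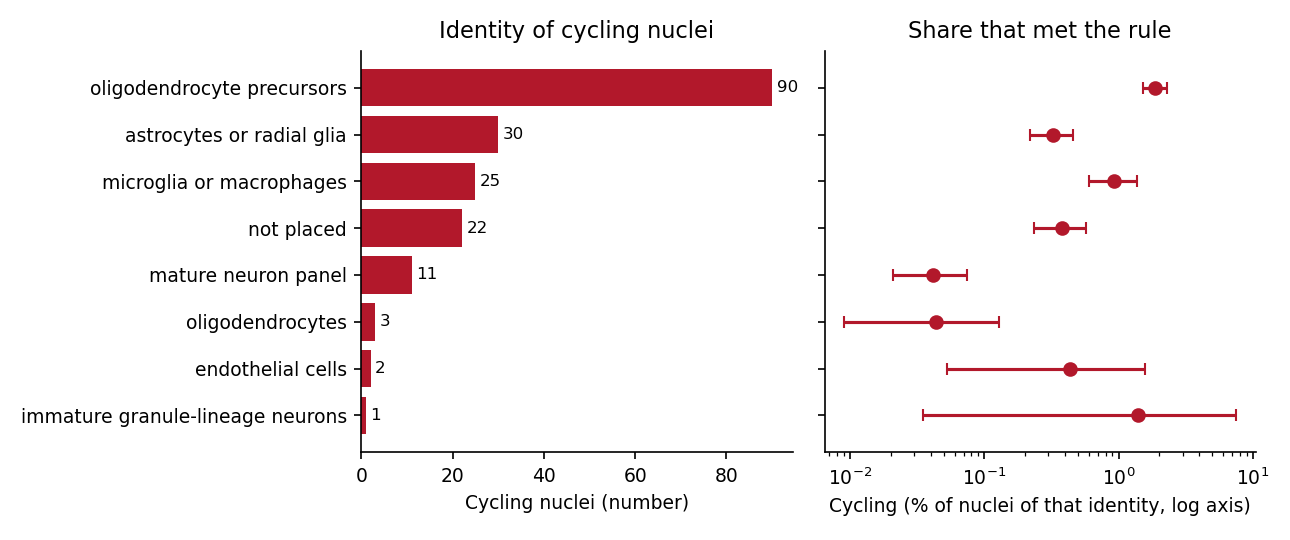
Cycling nuclei by marker panel identity: their number (left) and the share of each identity's nuclei that were cycling (right, percent on a log axis, exact 95% intervals). The 90 oligodendrocyte precursor-like nuclei outnumber the 30 astrocyte-like and 25 microglia-like nuclei.

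The identities rest on few genes in each nucleus: the median number of markers detected was 5 for the precursors, 5 for the astrocyte-like and 6 for the microglia-like nuclei, and 57 of the 162 placed nuclei led by a single marker. The panels placed these nuclei, so the levels of their markers below are a description and no check of the identities. LHFPL3, a precursor marker, averaged 4453 CPM in cycling precursors and 5107 CPM in other precursors. SLC1A2, the main glutamate transporter of astrocytes, averaged 2773 CPM in cycling and 7594 CPM in other astrocyte-like nuclei. CSF1R, the receptor on which microglia depend for survival, averaged 421 CPM in cycling and 602 CPM in other microglia-like nuclei. Over whole panels the sums were 10350 CPM in cycling and 13450 CPM in other precursors, 8368 and 16260 CPM in cycling and other astrocyte-like nuclei, and 4815 and 6740 CPM in cycling and other microglia-like nuclei. The 8 precursor markers in the files were thus lower by less than 2-fold in sum in cycling precursors, and the 10 astrocyte markers nearly 2-fold lower in cycling astrocyte-like nuclei. PDGFRA, the usual receptor marker of precursors, and OLIG1 and SOX2 were not analysed here by those symbols. As a description across 10374 genes, the log CPM profile of cycling nuclei resembled that of other nuclei of the same identity most in every case, with Pearson r of 0.926 for precursors, 0.86 for astrocyte-like and 0.872 for microglia-like nuclei.

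Doublets, 2 nuclei caught under 1 barcode, move with these identities and were therefore scored in each library. The median score (the share of simulated doublets among the nearest neighbours) was 0.46 in cycling nuclei and 0.14 in other nuclei. It was 0.38 in cycling and 0.09 in other precursors, 0.57 in cycling and 0.12 in other astrocyte-like nuclei, and 0.56 in cycling and 0.08 in other microglia-like nuclei. Removing the highest scores in each library took 9 of 90 cycling precursors, 19 of 30 cycling astrocyte-like nuclei and 10 of 25 cycling microglia-like nuclei, against 3.73%, 5.97% and 4.16% of the other nuclei of the same identities. The 81 precursors that remained were 61.4% of 132 cycling nuclei, and the 11 astrocyte-like nuclei 8.33%. Cycling nuclei also held more UMIs, at a median of 3475.5 in cycling against 2864.5 in other precursors, 3727.5 against 2245 in astrocyte-like and 2667 against 1674 in microglia-like nuclei. How far doublets or a doubled genome account for this was not tested. Counts of the lists in precursors are given without the removed nuclei where they differ in calls of lower genes, and the results within astrocyte-like nuclei rest mostly on nuclei that the removal took.

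The 11 cycling nuclei placed by the mature neuron panel looked mixed by the same measures. Their median doublet score was 0.58, against 0.16 in other nuclei of that panel, and 5 of the 11 were removed as doublets. The neuron panel summed to 5181 CPM in them and to 7310 CPM in other nuclei of the panel. Of the other 10 panels 7 had a higher sum in these nuclei than in other nuclei of the panel, among them precursors (2309 CPM against 1195), astrocytes (1141 CPM against 520), oligodendrocytes (940 CPM against 478), endothelial cells (470 CPM against 112) and microglia (322 CPM against 86.1). The immature neuron, inhibitory neuron and lymphocyte panels had a lower one, inhibitory neurons with 268 CPM against 891.5. Of the 11 nuclei 7 led by a single marker. The 22 nuclei that were not placed had 4765 CPM of precursor markers, 3103 CPM of astrocyte markers and 1869 CPM of mature neuron markers, against 2261, 1953 and 4509 CPM in other nuclei that were not placed.

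Within the cycle, each nucleus was set to S phase or to G2 and M phase by which of 2 published gene lists took more of its UMIs, 42 S phase genes and 42 G2 and M phase genes being in the files. The genes of the rule were left out of both lists. The rule still chose nuclei by late genes, with which other G2 and M phase genes rise and fall, so the balance is a description of the selected nuclei. Of the 184, 133 (72.3%, 65.2% to 78.6%) had more G2 and M phase UMIs, 47 had more S phase UMIs and 4 had equal numbers. Both lists were far above other nuclei: S phase genes summed to 3247 CPM in cycling and 499 CPM in other nuclei, and G2 and M phase genes to 7132 CPM in cycling and 501.5 CPM in other nuclei. The share leaning to G2 and M phase was 77.1%, 73.9%, 67.9% and 72.7% in libraries 1, 2, 3 and 4, which is narrower than the counting error of each.

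S phase RNA was not equally high in the 3 glial identities. S phase genes summed to 4045 CPM (3834 to 4265) in cycling precursors and 714 CPM in other precursors, and to 3524 CPM in cycling and 656 CPM in other astrocyte-like nuclei. In microglia-like nuclei the sum was 2166 CPM (1857 to 2512) in cycling nuclei and 686 CPM in other nuclei. G2 and M phase genes summed to 7433 CPM in cycling precursors and 7345 CPM in cycling astrocyte-like nuclei. In cycling microglia-like nuclei they summed to 8528 CPM (7903 to 9189). Other precursors, astrocyte-like and microglia-like nuclei had 486, 455 and 684.5 CPM. Microglia-like nuclei were thus lowest in S phase RNA among cycling nuclei, and highest in G2 and M phase RNA among cycling and other nuclei alike. The genes of the rule were highest there too, at 3565 CPM against 2788 CPM in cycling precursors and 3045 CPM in cycling astrocyte-like nuclei. Their median depth was lowest, at 2667 UMIs against 3475.5 and 3727.5. How far the rule and the depth account for this ranking was not tested. Of the cycling microglia-like nuclei 22 of 25 leaned to G2 and M phase (88.0%, 68.8% to 97.45%), against 59 of 90 precursors (65.6%, 54.8% to 75.3%) and 19 of 30 astrocyte-like nuclei (63.3%, 43.9% to 80.1%). These intervals of the shares overlap. With nuclei thinned to 2000 UMIs the shares were 81.8%, 64.7% and 67.9%.

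**Figure D3:**
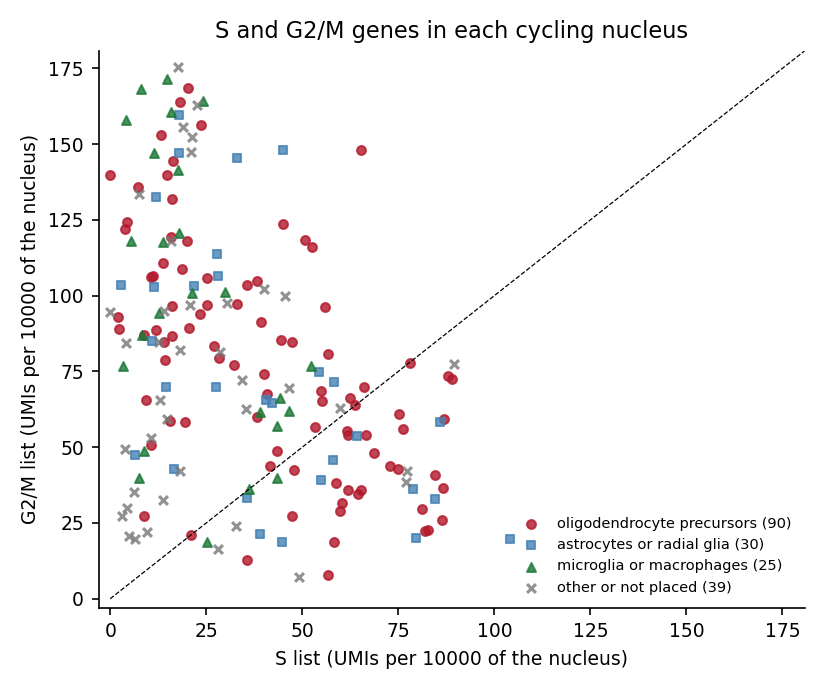
S phase (horizontal) against G2 and M phase RNA (vertical) in UMIs per 10000 UMIs of the nucleus, 1 point a cycling nucleus, by identity; the dashed line marks equal amounts. More nuclei lie above the line than below it in all 3 glial identities, 22 of 25 among microglia-like nuclei.

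Genes were then compared between cycling and other nuclei. A gene was called higher or lower if the fold was at least 2, the higher side reached 20 CPM, and the cycling nuclei held at least 20 UMIs, or for a lower gene would have held 20 at the level of the other nuclei. Against all other nuclei 1184 of 7249 measured genes were higher (16.3%) and 824 lower (11.4%), a mix of cell cycle and cell type, since 45.5% of all nuclei carried the mature neuron panel. Scaling by TMM (trimmed mean of M-values) moved the median log2 ratio of all measured genes by -0.22, and 44.6% of the called genes were then higher, against 59.0%. Neuronal genes showed the cell type part: 11 of 16 measured genes of neuronal maturation were lower and none higher, and the list's median log2 ratio was -1.49 against 0.18 for all measured genes. RBFOX3, the neuronal nuclear antigen NeuN, averaged 82.1 CPM in cycling and 634 CPM in other nuclei. PTPRZ1, a receptor phosphatase of radial glia and precursors, averaged 1411 CPM in cycling and 351 CPM in other nuclei, and had the higher level in cycling nuclei in each of libraries 1 to 4. To hold the cell type fixed, cycling nuclei were compared with other nuclei of the same identity in what follows.

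In oligodendrocyte precursors 523 of 4319 measured genes were higher in the 90 cycling nuclei (12.1%) and 252 were lower (5.83%). The higher genes covered every step of the cycle, and the lower ones included genes of oligodendrocyte differentiation. The median log2 ratio of all measured genes was 0.08, and TMM moved it by -0.10. Of the 13 lists of the cell cycle, none held a gene that was lower with all nuclei kept, and 1 gene, TFDP2, was lower with doublets removed. The rule's own 7 genes are left out of all list counts, and since the other cycle genes rise and fall with those 7, their direction follows from how the nuclei were chosen. How far each step stood above other precursors depends on the rule too, since its 7 genes peak late in the cycle. The folds below are therefore a description of the selected nuclei.

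The steps before and during DNA copying were about 5-fold higher in cycling precursors. Replication licensing genes summed to 1764 CPM in cycling and 384 CPM in other precursors (4.59-fold, 4.22 to 4.998), with 10 of 12 measured genes higher and a median log2 ratio of 2.51. DTL, which directs the destruction of the licensing factor CDT1 once replication starts, averaged 216 CPM in cycling and 5.396 CPM in other precursors. In cycling precursors of libraries 1 to 4 it had 29.5, 265, 244 and 224.5 CPM, against 4.93, 4.39, 5.835 and 6.17 CPM in other precursors. All 4 were above other precursors. Library 1 was the lowest, but its 8 cycling precursors held only 33887 UMIs of all genes. Libraries 1 and 2 together had 9 UMIs of DTL in cycling precursors (30.1-fold, 12.1 to 69.1). All 19 measured genes of DNA synthesis and nucleotide supply were higher (5.31-fold in sum, 4.96 to 5.68). They include RRM2, the regulatory subunit of the enzyme that makes deoxynucleotides, with 71.0 CPM in cycling and 1.54 CPM in other precursors, and TYMS, thymidylate synthase, with a log2 ratio of 4.76. Of the replication stress and homologous repair genes 17 of 19 were higher (4.68-fold in sum). EXO1, a nuclease of mismatch repair and recombination, averaged 112 CPM in cycling and 1.61 CPM in other precursors, while the helicase BLM, at 198 CPM in cycling and 138 CPM in other precursors, did not reach the threshold.

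Regulators of the cycle came next. All 12 measured cyclins, mitotic kinases and phosphatases were higher, 8.10-fold in sum. CDK1, the kinase that drives entry into mitosis, had 118, 232, 153 and 78.9 CPM in cycling precursors of libraries 1 to 4, and 0.448, 0.976, 0.934 and 0.9145 CPM in other precursors of the same libraries. The cycling nuclei were above the others in all 4, and pooled the fold was 167.5 (84.4 to 362). CCNB1, the cyclin partner of CDK1, had a log2 ratio of 4.95 and CCND1, a G1 cyclin, one of 1.34. Among the RB and E2F family with the MuvB complex and FOXM1, 9 of 15 genes were higher (2.48-fold in sum). FOXM1, which switches on genes of G2 and M phase, averaged 97.65 CPM in cycling and 1.73 CPM in other precursors. E2F7, a repressor of the E2F family, averaged 118 CPM in cycling and 1.22 CPM in other precursors. TFDP2, a partner of E2F proteins, averaged 127 CPM in cycling and 216 CPM in other precursors and was not called, but it passed as lower with doublets removed (log2 ratio -1.15).

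The largest folds belonged to the spindle. All 20 measured genes for spindle motors and microtubule proteins were higher, and their sum was 4613 CPM in cycling and 137.5 CPM in other precursors (33.5-fold, 31.4 to 35.8), with a median log2 ratio of 6.11. KIF4A, a chromosome-bound motor, had 413, 299, 488.5 and 467 CPM in cycling precursors of libraries 1 to 4, and 3.14, 2.44, 3.03 and 2.74 CPM in other precursors. The 4 libraries were alike on both sides, and the pooled fold was 157 (112 to 225). All 14 genes of cytokinesis were higher (20.3-fold in sum). CEP55, which directs the final cut between daughter cells, averaged 106.5 CPM in cycling and 0.321 CPM in other precursors. All 16 centromere and kinetochore genes were higher (12.6-fold in sum), NDC80, the microtubule-binding subunit of the kinetochore, with 147.5, 299, 285 and 334 CPM in cycling precursors of libraries 1 to 4 and 2.24, 2.44, 2.80 and 3.43 CPM in other precursors.

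Of the spindle checkpoint and anaphase genes 8 of 10 were higher (4.16-fold in sum). SGO1, the shugoshin that shields centromeric cohesin, had 28 UMIs in cycling precursors and 1 UMI in all other precursors, a fold of 1290 with an interval of 213 to 52740. The related SGO2 averaged 352 CPM in cycling and 1.799 CPM in other precursors. MAD1L1, which holds the checkpoint protein MAD2 at kinetochores, averaged 101 CPM in cycling and 66.4 CPM in other precursors and was not called. Of 17 genes of the centrosome and of primary microcephaly 16 were higher (6.73-fold in sum), among them KNL1, a kinetochore scaffold, at 411 CPM in cycling and 6.55 CPM in other precursors. Condensin, cohesin and chromosome structure genes split. NCAPG, a condensin subunit, averaged 334 CPM in cycling and 3.01 CPM in other precursors, whereas STAG1, a subunit of cohesin, which all nuclei use, averaged 876 CPM in cycling and 466 CPM in other precursors and fell short of 2-fold. Of 11 genes of the chromatin of dividing cells 9 were higher (4.07-fold in sum), including LMNB1, lamin B1 of the nuclear envelope, at 337 CPM in cycling and 28.7 CPM in other precursors. HMGB1 did not pass, with a fold of 1.09, while its relative HMGB2 passed with 20.8.

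**Figure D4:**
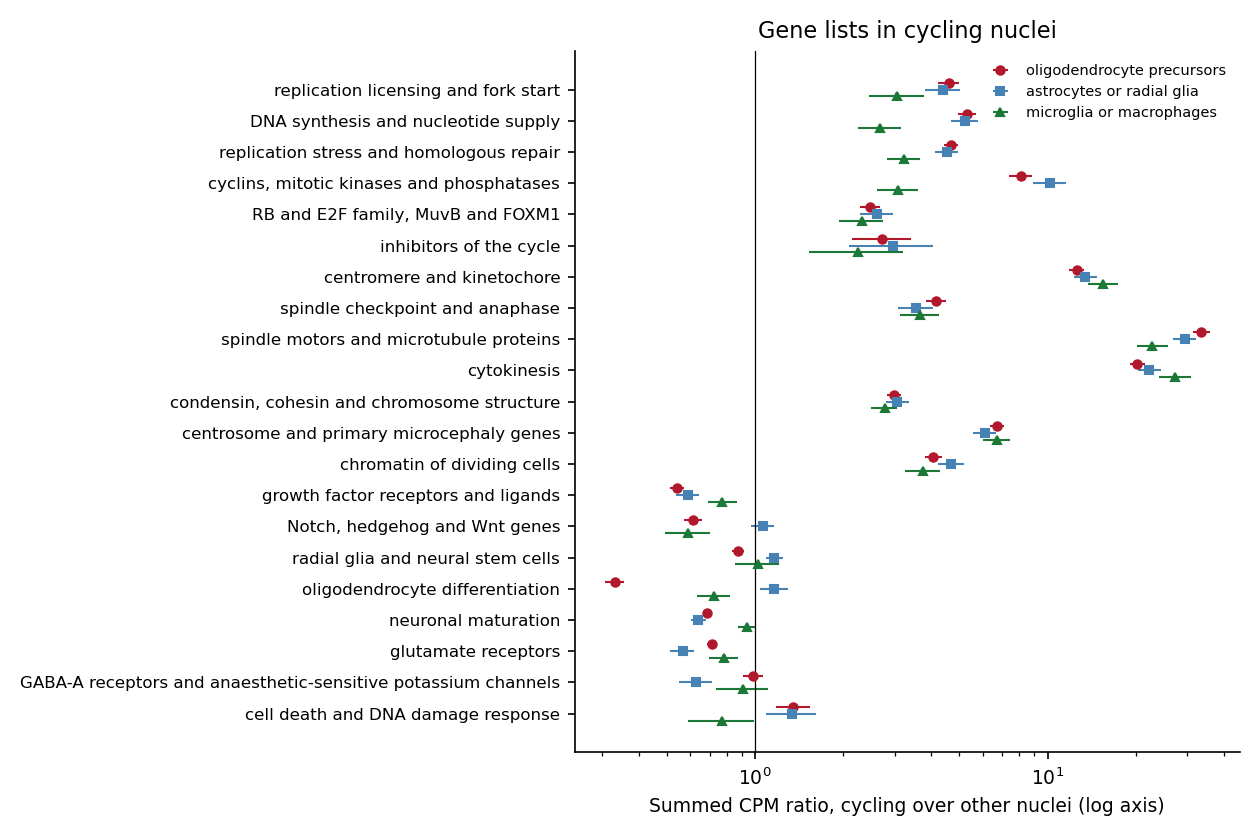
Ratio of summed CPM in cycling over other nuclei of the same identity for each gene list (log axis, exact 95% intervals, rule genes left out), for precursors, astrocyte-like and microglia-like nuclei. Spindle motors stand highest in precursors at 33.5, and oligodendrocyte differentiation lowest at 0.331.

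Genes of oligodendrocyte differentiation were lower in cycling precursors. Of 12 measured genes 8 were lower and none higher, the list summed to 2071 CPM in cycling and 6258 CPM in other precursors (0.331 of it, 0.307 to 0.357), and its median log2 ratio was -1.78 against 0.08 for all measured genes. BCAS1, a marker of precursors that have begun to differentiate, had 59.0, 66.4, 142.5 and 84.9 CPM in cycling precursors of libraries 1 to 4, and 1368, 1332, 2245 and 2335 CPM in other precursors. It was lower in cycling nuclei in every one of the 4, and pooled it fell 17.7-fold (12.65 to 25.5). MYRF, the transcription factor that switches on myelin genes, had 1 UMI in cycling precursors (2.96 CPM) and 69.5 CPM in other precursors, a level 23.5-fold lower (4.21 to 928.5). GPR17, a receptor of precursors on the way to differentiation, averaged 14.8 CPM in cycling and 61.3 CPM in other precursors. ENPP6, an enzyme of newly formed oligodendrocytes, averaged 47.35 CPM in cycling and 174 CPM in other precursors, and MBP, myelin basic protein, 154 CPM in cycling and 619 CPM in other precursors. FYN, SIRT2 and TNS3 completed the 8. With doublets removed, 7 of 11 measured genes of the list were lower and none higher.

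Of the 10 genes with the largest falls, the 3 of highest level outside that list were TMEM108, FRMD4A and BMPER. TMEM108, a membrane protein, had 207, 232, 387 and 267 CPM in cycling precursors of libraries 1 to 4, and 1873, 1472, 2856 and 2959 CPM in other precursors. FRMD4A, a scaffold of cell polarity, had 1003, 1062, 712 and 1007 CPM in cycling precursors of the same libraries, and 4873, 4445, 6500 and 6698 CPM in other precursors. BMPER, a secreted regulator of BMP signalling, averaged 68.1 CPM in cycling and 424 CPM in other precursors. All 3 fell in pooled nuclei, 7.76-fold, 6.105-fold and 6.24-fold, and did so in each of libraries 1 to 4.

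Other precursors are a mix of stages, and the mix moved with these results. Nuclei with at least 2 UMIs of BCAS1, ENPP6 and MYRF together were 13 of 90 cycling precursors (14.4%, 7.92% to 23.4%) and 2090 of 4716 other precursors (44.3%, 42.9% to 45.75%). Leaving those nuclei out on both sides, a step chosen after the data were seen, 2 of 9 measured differentiation genes were lower, and their median log2 ratio was -0.16. BCAS1, ENPP6 and MYRF belong to that list, so this count follows in part from the step and is a description only, as are the ratios of BCAS1 (-1.22) and MYRF (-0.89). Of the other genes among the 10 largest falls, TMEM108 and FRMD4A lost their calls, at log2 ratios of -0.23 and -0.69. The ratios of the other 6 stayed past 2-fold lower: PTCHD4 at -4.44, FSTL5 at -3.23, PICK1 at -2.99, SGSM1 at -2.94, IGF2BP2 at -2.08 and BMPER at -1.39. All but BMPER of these 6 rested on 2 to 8 UMIs in cycling nuclei. The mix of libraries differed too, since libraries 5 to 8 held 701 of the 4806 precursors and 3 of the 90 cycling ones. With libraries 1 to 4 alone and differentiating nuclei kept, 176 of the 252 lower calls in precursors were made again. FSTL5 then stood at 0.259 of other precursors in libraries 1 and 2, 0.194 in library 3 and 0.359 in library 4. For SGSM1 the interval of this ratio reached past 1 in each of these, with upper limits of 1.01, 1.52 and 1.25. That of IGF2BP2 did so in libraries 1 and 2, with an upper limit of 1.46. Of the spindle motors 20 of 20 were higher without differentiating nuclei too.

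**Figure D5:**
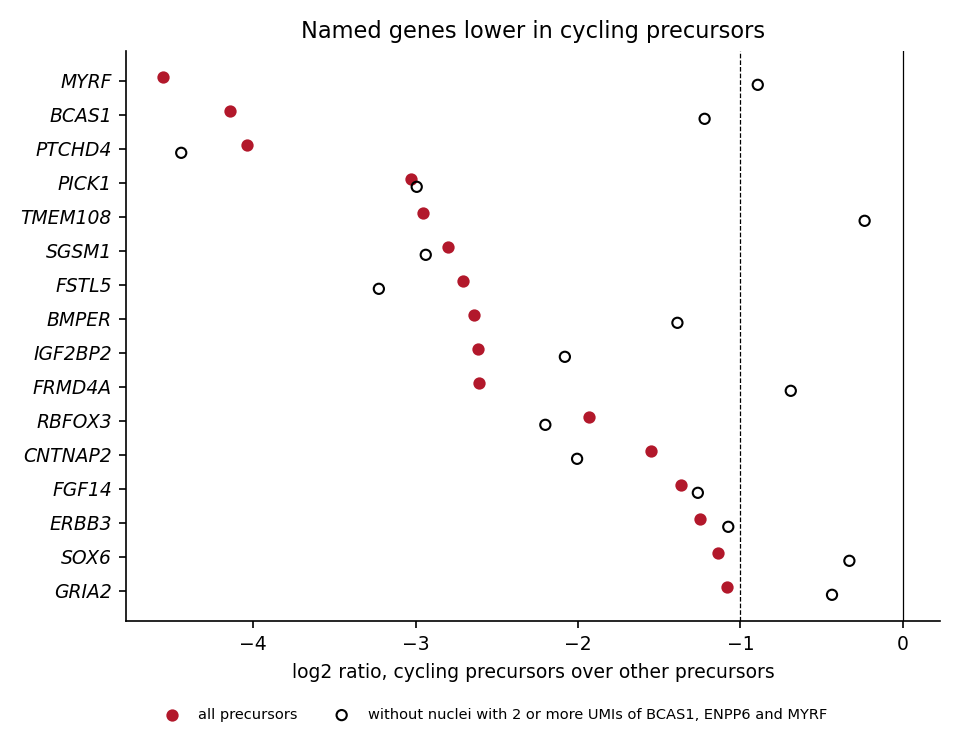
Log2 ratio of CPM in cycling over other precursors for named genes that were lower, in all precursors (filled) and without nuclei with at least 2 UMIs of BCAS1, ENPP6 and MYRF (open); the dashed line marks 2-fold lower. Without those nuclei TMEM108 lies at -0.23, FRMD4A at -0.69 and MYRF at -0.89, while PTCHD4 at -4.44 and BMPER at -1.39 stay past the line.

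Of 12 measured growth factor receptors and ligands none was higher and 3 were lower in cycling precursors (ERBB3, ERBB4 and FGF14), where 5.83% of all measured genes were lower. The median log2 ratio of the list was -0.26, against 0.08 for all measured genes. ERBB4, a neuregulin receptor, averaged 1775 CPM in cycling and 4114 CPM in other precursors. FGF14, an intracellular FGF homologue that binds sodium channels, had 944, 531, 539 and 807 CPM in cycling precursors of libraries 1 to 4, and 1936, 1883, 1858 and 1856 CPM in other precursors. It was lower in all 4. EGFR, a receptor for mitogens, averaged 213 CPM in cycling and 205 CPM in other precursors. Among Notch, hedgehog and Wnt genes 1 of 8 was higher, near the 12.1% of all measured genes that were higher. NOTCH1, the receptor, averaged 101 CPM in cycling and 49.2 CPM in other precursors, a fold of 2.045 that rested on library 4, without which its log2 ratio was 0.43, and that fell short of 2 under TMM. SOX6, a transcription factor that holds precursors undifferentiated in mice, was the 1 gene lower of 7 radial glia and stem cell genes, at 1033 CPM in cycling and 2270 CPM in other precursors, and its call was lost without library 3, without library 4 or without differentiating nuclei. BCL2, which blocks apoptosis, was the 1 gene higher of 4 measured genes of cell death and DNA damage, at 263 CPM in cycling and 113 CPM in other precursors. In library 1 BCL2 was not higher (118 CPM in cycling and 138 CPM in other precursors), and its call was lost without library 4, at a log2 ratio of 0.86, and without differentiating nuclei, at 0.76.

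None of the glutamate receptor or neuronal maturation genes was higher in cycling precursors. Of 16 measured glutamate receptor genes 4 were lower in cycling precursors, GRIA2, GRIK1 and GRM7 among them, with a median log2 ratio of -0.41, and 5 of 16 were lower with doublets removed. With all nuclei kept, 5.83% of all measured genes were lower. GRIA2, the AMPA receptor subunit that limits calcium entry, had 885, 498, 875 and 1122 CPM in cycling precursors of libraries 1 to 4, and 1838, 1800, 2389 and 2469 CPM in other precursors. It was lower in each, though its call was lost without library 3 (log2 ratio -0.93) and without differentiating nuclei (-0.44). Of 14 neuronal maturation genes 2 were lower, and 3 with doublets removed. CNTNAP2, a cell adhesion protein, had 384, 896, 346 and 734 CPM in cycling precursors of libraries 1 to 4, and 1844, 1824, 1242 and 938 CPM in other precursors. RBFOX3 had 177, 33.2, 0 and 6.07 CPM in cycling precursors of the same libraries, and 88.7, 70.8, 59.5 and 42.3 CPM in other precursors. It was higher in cycling nuclei in library 1 and lower in the other 3, so its pooled 3.81-fold lower level was not shared by all libraries. The neuron panel as a whole summed to 1778 CPM in cycling and 2368 CPM in other precursors, and its part in these genes was not tested.

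In astrocyte-like nuclei 292 of 1845 measured genes were higher in the 30 cycling nuclei (15.8%) and 218 were lower (11.8%). The cycle rose as in precursors, and 2 enzymes of mature astrocytes and a growth factor receptor were among the genes that fell most. Under TMM, which moved the median log2 ratio by -0.24, 37.85% of the called genes were higher, against 57.25%. With 121178 UMIs in the cycling nuclei a gene needed about 165 CPM to be called, so fewer genes could be measured than in precursors. With doublets removed 11 nuclei remained, and 43 of the 292 higher and 56 of the 218 lower calls were made again.

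All 13 measured spindle motors were higher in cycling astrocyte-like nuclei (29.5-fold in sum, 26.9 to 32.3), as were 11 of 11 centromere and kinetochore genes (13.5-fold), 9 of 9 genes of cytokinesis (22.3-fold) and 8 of 8 centrosome genes (6.09-fold). KIF14, a motor of cytokinesis, had 351, 380, 421 and 134 CPM in cycling nuclei of libraries 1 to 4, and 2.61, 4.24, 3.66 and 2.42 CPM in other astrocyte-like nuclei. SMC4, a core condensin subunit, had 577, 835, 943 and 336 CPM in cycling nuclei of the same libraries, and 23.2, 24.5, 25.35 and 22.3 CPM in others. Both were far above other astrocyte-like nuclei in each library. Licensing (3 of 3 genes higher) and DNA synthesis (5 of 5) were 4.39-fold and 5.21-fold higher in sum, close to their folds in precursors.

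Several genes with known roles in astrocytes were among those lower in cycling astrocyte-like nuclei. Of the 10 panel markers, GLI3 (635 CPM in cycling, 519.5 CPM in others) and RFX4 (817 CPM in cycling, 754 CPM in others) had slightly higher levels. Every other marker of the panel had a lower level in cycling nuclei. Among these were SLC1A2 (2773 CPM in cycling, 7594 CPM in others), ADGRV1 (2228 and 4406 CPM) and GFAP (99.0 and 482 CPM). SLC25A18, a mitochondrial glutamate carrier, had 125.5, 0, 120 and 201 CPM in cycling nuclei of libraries 1 to 4, and 595, 607, 721 and 650 CPM in other astrocyte-like nuclei. ETNPPL, an astrocyte enzyme that breaks down phosphoethanolamine, averaged 66.0 CPM in cycling and 372 CPM in others, and ACSBG1, an acyl-CoA synthetase, 41.3 CPM in cycling and 231 CPM in others. FGFR1, a fibroblast growth factor receptor, had 5 UMIs in cycling nuclei (41.3 CPM) and 427 CPM in others, 10.35-fold lower (4.43 to 31.9). GRM3, a metabotropic glutamate receptor of astrocytes, had 401.5, 683, 60.2 and 403 CPM in cycling nuclei of libraries 1 to 4, and 1028, 972, 1005 and 975 CPM in others. SLC25A18 and GRM3 were lower in cycling nuclei in each of the 4 libraries, though libraries 2 and 4 held only 3 and 4 cycling astrocyte-like nuclei. In all, 5 of 12 measured glutamate receptor genes and 3 of 11 growth factor genes were lower, where 11.8% of all measured genes were lower. None of either list was higher, where 15.8% of all measured genes were higher.

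The radial glia list moved both ways in astrocyte-like nuclei, where 15.8% of all measured genes were higher and 11.8% lower. NFIB, a transcription factor of radial glia, was the 1 higher gene of 10, at 1155 CPM in cycling and 554 CPM in others, and it fell below 2-fold under TMM and without library 4. FAM107A, HOPX and LRIG1 were lower. HOPX, a marker of outer radial glia in human cortex and of stem cells of the mouse dentate gyrus, had 7 UMIs in cycling nuclei (57.8 CPM) and 165 CPM in others. FAM107A, another marker of outer radial glia, had 3 UMIs in cycling nuclei (24.8 CPM) and 173 CPM in others. Both calls were lost without library 1. MBP was higher in cycling astrocyte-like nuclei, at 957 CPM against 290 CPM in others, but its levels in cycling nuclei of libraries 1 to 4 were 50.2, 7821, 160.5 and 201 CPM. The value rested on the 3 nuclei of library 2, without which the log2 ratio was -1.35. The call of MAML3, a Notch coactivator, likewise rested on library 3, without which its log2 ratio was -0.39. The oligodendrocyte panel summed to 1766 CPM in cycling and 817 CPM in other astrocyte-like nuclei.

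Markers of neuron production had few UMIs. The panel of immature granule-lineage neurons summed to 289 CPM in cycling and 188 CPM in other astrocyte-like nuclei, and to 219 CPM in cycling and 292 CPM in other precursors. Its members went both ways in astrocyte-like nuclei. EOMES, a transcription factor of intermediate progenitors, had 8 UMIs in 5 of the 30 cycling astrocyte-like nuclei, or 66.0 CPM (28.5 to 130.1), against 1.91 CPM in other astrocyte-like nuclei. DCX, a microtubule protein of migrating neurons, had 3 UMIs in cycling nuclei (24.8 CPM) and 79.1 CPM in others, and PROX1, a transcription factor of granule neurons, 33.0 CPM in cycling and 38.5 CPM in others. PAX6, a transcription factor of radial glia, averaged 90.8 CPM in cycling and 69.75 CPM in other astrocyte-like nuclei. In precursors PAX6 had 13 UMIs in 12 of 90 cycling nuclei (38.5 CPM), against 5.52 CPM in other precursors. HES5, a target of Notch in neural stem cells, had no UMI in any cycling nucleus and 21 UMIs in all other nuclei. Of the cycling nuclei 1 carried the panel of immature granule-lineage neurons.

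In microglia-like nuclei 123 of 1111 measured genes were higher in the 25 cycling nuclei (11.1%) and 64 were lower (5.76%). Genes of the kinetochore, spindle and cytokinesis rose together, the S phase lists stood lower than in precursors, and SPP1, TGFBR2 and CCND3 were among the genes that fell. Under TMM, which moved the median by -0.18, 46.0% of the called genes were higher, against 65.8%. The cycling nuclei held 80796 UMIs, so a gene needed about 247.5 CPM to be called. Of these UMIs 10524 came from 1 nucleus of library 5. With doublets removed 15 nuclei remained, and 41 of the 123 higher and 24 of the 64 lower calls were made again.

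Spindle motors were 22.9-fold higher in sum in cycling microglia-like nuclei (8 of 8 measured genes), cytokinesis genes 27.35-fold (7 of 7) and centromere and kinetochore genes 15.5-fold (7 of 7). SMC4 had 1115, 1488, 1123 and 1061 CPM in cycling nuclei of libraries 1 to 4, and 33.4, 27.1, 38.5 and 37.6 CPM in other microglia-like nuclei. EZH2, the histone methyltransferase of the Polycomb complex, had 304, 744, 414 and 531 CPM in cycling nuclei of the same libraries, and 27.0, 22.6, 23.1 and 17.7 CPM in others. MELK, a kinase of mitosis, had 152, 474, 473 and 637 CPM in cycling nuclei and 5.14, 2.26, 1.28 and 2.13 CPM in others. All 3 were higher in cycling nuclei in each of libraries 1 to 4. Licensing, DNA synthesis and repair were 3.06-fold, 2.67-fold and 3.22-fold higher in sum in microglia-like nuclei, against 4.59-fold, 5.31-fold and 4.68-fold in precursors. For all 3 lists the intervals of the fold in the 2 identities did not meet (2.45 to 3.77 against 4.22 to 4.998 for licensing). These intervals pool UMIs and leave out the spread between nuclei, so they do not settle a difference between the identities. With doublets removed the licensing intervals met, at 3.66-fold (2.82 to 4.68) in microglia-like nuclei against 4.645-fold (4.24 to 5.08) in precursors, and those of the other two lists did not.

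Among lower genes, SPP1, osteopontin, a secreted protein of activated microglia, had 0, 0, 355 and 212 CPM in cycling microglia-like nuclei of libraries 1 to 4, and 497.5, 506, 770.5 and 785 CPM in others. TGFBR2, a receptor of the TGF-beta signal that maintains microglia, had 152, 338, 532 and 212 CPM in cycling nuclei of the same libraries, and 630, 669, 972 and 1051 CPM in others. CCND3, a G1 cyclin, had 50.7, 67.7, 177 and 159 CPM in cycling nuclei and 317.5, 311, 392 and 360 CPM in others. All 3 were lower in cycling nuclei in each of the 4 libraries. With all nuclei kept, CCND3 was the 1 lower gene among all cell cycle genes measured here in the 3 identities, and its call rested on 8 UMIs in cycling nuclei. RBPJ and MAML3, the DNA-binding protein and a coactivator of Notch signalling, were lower by 2.15-fold each. They rested on 12 and 25 UMIs in cycling nuclei, and RBPJ stood at 0.240 to 0.816 of its level in others by its interval. With doublets removed, 1 of 2 measured genes of the Notch, hedgehog and Wnt list was lower. In the list that holds CCND3, 0 genes could then be measured.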

How the data were processed

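The 8 samples, 4 of a sevoflurane-exposed animal and 4 of a pool of 2 controls, were sequenced as 8 libraries of nuclei. The authors deposited raw UMI counts for each gene in each nucleus, written by Cell Ranger 3.1.0 per the file headers. CASAVA 1.8, Cell Ranger and Seurat are the tools listed in the submitters' processing notes. The genome build is not given in the sources used here. In all there were 59749 barcodes, 331133661 UMIs and 21748 genes, of which 1625 had no count. The files held 0 columns of other samples.

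Kept nuclei had 500 or more UMIs and 300 or more genes, and doublets stayed in unless said otherwise. Doublets were scored per library as the share of simulated doublets among 50 neighbours (2000 variable genes, 30 components, seed 1), and the alternative removed 0.8% per 1000 nuclei. Identities came from 11 marker panels by the rule given with the results. Gene lists (21 lists, 442 genes, 431 in the files) were described by counts, summed CPM and medians, since 1 matrix without groups allows no test. Intervals are exact: Poisson for CPM, Clopper-Pearson for shares and the conditional binomial for ratios. A share of 0 is given with the limit of 3 counts. The genes named are the 7 of the rule, the 10 genes of largest ratio in each direction, panel markers and, from every list, no more than 2 called genes each way and the gene of highest level that was not called. Some genes that this choice gave are not reported here. Other listed genes named were chosen after their values were seen. Symbols came from the files or from a table of 17209 IDs. The members, panels, lists and tests were chosen with earlier results of these data known. Steps were tested on simulated data.

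Alternatives tried were other rule thresholds (3 or 10 UMIs per 10000, at least 4 of the 7 genes), doublets removed, a lead of 2 markers, nuclei weighted equally, a minimum of 50 CPM, TMM scaling with edgeR 4.0.16, taking off 5% of free RNA, thinning to 2000 or 1000 UMIs, and leaving out each library. Leaving out differentiating precursors, weighting libraries equally and using libraries 1 to 4 alone were added after seeing the data. A planned search of promoters for motifs was not run. Python 3.11.15, numpy 2.4.6, scipy 1.17.1, pandas 2.3.3, scikit-learn 1.9.0 and R 4.3.3 were used.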

Additional observations from a re-analysis of the deposited data

How the results depend on the processing

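No paired analysis was possible because the replicate numbers of the labels belong to samples that could not be matched to libraries, so the planned replicate block and the comparison of sevoflurane with control were not run. The share of cycling nuclei followed the rule and the depth: it was 0.2405% with at least 4 of the 7 genes, 0.242% with doublets removed and 0.124% at 1000 UMIs per nucleus, and 0.243% to 0.349% with each library left out. With at least 4 genes 81.4% leaned to G2 and M phase, and with a library left out 71.1% to 74.05%. Precursors were 61.4% of cycling nuclei with doublets removed, 31.5% with a lead of 2 markers, and 38.1% (without library 4) to 55.0% with a library left out. Astrocyte-like nuclei were 8.33% with doublets removed and 13.4% to 22.03% with a library left out, and microglia-like nuclei 12.4% to 15.25%.

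Counts of called genes moved as follows. Against all other nuclei, 1020 to 1139 genes were higher and 667 to 804 lower with a library left out. In precursors 308 (without library 4) to 529 were higher and 172 to 268 lower, and 163 were lower with a lead of 2 markers. In astrocyte-like nuclei 71 were higher and 83 lower with doublets removed, 186 and 141 with a lead of 2 markers, and 124 (without library 3) to 294 were higher and 115 to 221 lower with a library left out, 190 being higher without library 1; TMM gave 358 lower. In microglia-like nuclei 55 were higher with doublets removed, 186 higher and 127 lower at 3 UMIs per 10000, and 108 lower under TMM, and 78 (without library 4) to 123 were higher and 45 to 66 lower with a library left out. The cause of these moves was not tested, except that fewer nuclei leave fewer genes with enough UMIs to be called.

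Of the values of named genes under the alternatives, 4380 kept their direction and their call, 459 lost the call, 20 gained one and 3 reversed. The reversals were KAZN in microglia-like nuclei at 3 UMIs per 10000 (log2 ratio 0.18), and in astrocyte-like nuclei MBP without library 2 and MAML3 without library 3. With each library left out in turn the log2 ratio of MBP ran from -1.35 to 2.59 and that of MAML3 from -0.39 to 1.28. With 7 cycling nuclei in libraries 5 to 8, no result within an identity could be read there.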

Other observations

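CD74, the invariant chain of antigen presentation and a marker of the microglia panel, had 26 UMIs in cycling microglia-like nuclei (322 CPM), against 29.9 CPM in other microglia-like nuclei. All 26 lay in 1 of the 25 cycling nuclei, and 3.82% of the other microglia-like nuclei had a UMI of the gene. CSF3R, a cytokine receptor of the same panel, had no UMI in cycling and 29.3 CPM in other microglia-like nuclei, a difference that 25 nuclei are too few to resolve. HS3ST4, a heparan sulfate sulfotransferase, averaged 111 CPM in cycling and 641 CPM in other microglia-like nuclei, but 5 of its 9 UMIs in cycling nuclei came from libraries 5 to 8. In astrocyte-like nuclei NES, which encodes nestin, an intermediate filament of neural stem cells, had 4 UMIs in 4 of 30 cycling nuclei (33.0 CPM), against 4.45 CPM in other nuclei of that identity. NES was chosen after its values were seen.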
